A study of Mus musculus with 24 samples.

Results

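Complement is a set of plasma and cell-surface proteins that marks microbes, immune complexes and dying cells for clearance. It was followed here through 9 genes of whole mouse lung: the 3 chains of C1q (C1qa, C1qb and C1qc), the protease gene C1ra, the early classical components C4b and C2, the central component C3, factor B (Cfb) and the C3a receptor gene C3ar1. The members were picked by gene symbol, 9 of the 54532 genes in the count table, and each symbol matched 1 row. All 9 were among the 16935 genes with enough counts to be tested. A further 49 complement genes, grouped by role, were read beside them, and 35 of these were tested.

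The classical pathway starts when C1q, built from its A, B and C chains, binds a target, activating the attached proteases C1r and C1s. C1s then cuts C4 and C2 to form a C3 convertase. The alternative pathway builds its own convertase from C3b and factor B, so that each C3b deposited can lead to more. The liver makes most circulating complement, but tissues make it too: macrophages are the usual source of C1q, while epithelial, stromal and mesothelial cells can express C3, C4, C2 and factor B. C3ar1 encodes the receptor for the fragment C3a and is carried mainly by myeloid cells.

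The lungs came from young male C57BL6/j mice, and 24 RNA-seq libraries fell into 4 groups of 6. The groups were hypoxia with ABT-263, hypoxia with vehicle, normoxia with ABT-263, and normoxia with vehicle, which the study took as its control; all lasted 2 days. ABT-263 (navitoclax) blocks the survival proteins BCL-2, BCL-XL and BCL-W and was given at 50 mg/kg/day as a senolytic, a drug meant to clear senescent cells. The oxygen level of the hypoxia is not given in the sources used here, and no genetic change is named in any group.

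Libraries held 12643484 to 17295233 expected counts. Levels are CPM, counts scaled to a library total of 1000000 after TMM adjustment. Each test is edgeR's quasi-likelihood test, and a gene is said to have risen or fallen, or to be called, when its Benjamini-Hochberg adjusted p was under 0.05. Alveolar type 2 markers summed to between 22300 and 39400 CPM and club cell markers to between 51000 and 140000 CPM over all libraries. Hepatocyte markers summed to at most 2.09 CPM in any library. In bulk tissue, fewer cells of a type and less RNA per cell cannot be told apart. The labels do not tie libraries to animals, so a p-value speaks of the spread from library to library, some of which may be technical.

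The 3 C1q genes lie next to each other on the minus strand of chromosome 4 (GRCm38): C1qb at chr4:136880129-136886187, C1qc at chr4:136889804-136893065 and C1qa at chr4:136895917-136898803. C4b (chr17:34728380-34743882), Cfb (chr17:34856374-34862518) and C2 (chr17:34862604-34898265) share the minus strand of chromosome 17, where C2 ends just upstream of Cfb. C3 lies apart at chr17:57203970-57228136, also on the minus strand. C3ar1 (chr6:122847138-122856161, minus) and C1ra (chr6:124512405-124523443, plus) lie on chromosome 6.

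Promoters of 300 bases, 250 before and 50 after the RefSeq start, were found for 5 of the 9 members. Those of C1qb, C1qc and C3ar1, 3 genes whose hypoxia differences are described next, are shown with that of C3, whose level barely differed between the groups. The sequences are from RefSeq, build GRCm38.p6, and run 5′ to 3′ along the gene. Capitals mark matches, on either strand, to GGGNNNNNCC (an NF-kB-like pattern), AGGAAG (the core bound by PU.1 and other ETS factors) or TGCTGA (a core bound by MAF factors).
C1qb, chr4:136886151-136886450, minus: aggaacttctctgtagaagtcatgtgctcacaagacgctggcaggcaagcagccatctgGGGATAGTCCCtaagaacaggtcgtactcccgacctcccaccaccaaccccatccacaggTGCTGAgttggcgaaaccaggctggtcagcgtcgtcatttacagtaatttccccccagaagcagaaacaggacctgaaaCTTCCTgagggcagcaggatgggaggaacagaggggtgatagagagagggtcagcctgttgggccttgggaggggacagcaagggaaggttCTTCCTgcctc
C1qc, chr4:136892865-136893164, minus: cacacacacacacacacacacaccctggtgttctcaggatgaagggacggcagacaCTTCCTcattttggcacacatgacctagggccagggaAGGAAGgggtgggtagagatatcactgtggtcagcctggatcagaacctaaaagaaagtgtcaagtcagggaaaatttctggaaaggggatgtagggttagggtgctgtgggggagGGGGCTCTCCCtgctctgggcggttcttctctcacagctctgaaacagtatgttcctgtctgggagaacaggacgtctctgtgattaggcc
C3ar1, chr6:122856108-122856407, minus: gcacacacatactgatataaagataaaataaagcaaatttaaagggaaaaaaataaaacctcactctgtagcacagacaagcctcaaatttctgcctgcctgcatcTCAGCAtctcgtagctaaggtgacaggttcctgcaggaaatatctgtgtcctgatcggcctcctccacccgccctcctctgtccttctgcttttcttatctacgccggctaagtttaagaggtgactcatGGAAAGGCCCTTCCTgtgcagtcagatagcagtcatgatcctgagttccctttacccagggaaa
C3, chr17:57228087-57228386, minus: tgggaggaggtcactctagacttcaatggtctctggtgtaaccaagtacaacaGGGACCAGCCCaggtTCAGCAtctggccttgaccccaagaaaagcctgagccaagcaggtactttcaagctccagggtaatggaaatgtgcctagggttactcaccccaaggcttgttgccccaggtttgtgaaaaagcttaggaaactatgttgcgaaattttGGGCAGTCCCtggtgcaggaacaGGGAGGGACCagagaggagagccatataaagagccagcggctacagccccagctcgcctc

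AGGAAG was found at 2 places in the C1qb promoter, at 2 in that of C1qc and at 1 in that of C3ar1, where it overlaps the GGGNNNNNCC match; the C3 and C1ra promoters held none. It is a common word: 35.4% of all 32851 promoters of this length hold it, as 19.5% hold TGCTGA and 50.8% hold GGGNNNNNCC. Neither ACGTG nor GCGTG, the core letters bound by hypoxia-inducible factors, occurred on either strand of the 5 promoters, and 19.6% and 32.4% of all promoters hold them. GAAANNGAAA, the core of the interferon-stimulated element, was likewise absent from the 5 and present in 3.44% of all. TTCNNNGAA, the pattern bound by STAT factors, occurred in the C1ra promoter and in 8.30% of all. These are letters found in a window, not binding sites, and no match says nothing of the factor.

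In hypoxia, transcripts of factor B and the C3a receptor were called higher under both ABT-263 and vehicle, and those of C1q under ABT-263 only. C1ra, C4b, C2 and C3 stayed within the spread between libraries. Under ABT-263, 5 of the 9 members rose in hypoxia (C1qa, C1qb, C1qc, Cfb and C3ar1) and 0 fell, against 21.6% of all tested genes called higher and 19.4% called lower. Under vehicle, 2 of the 9 rose (Cfb and C3ar1) and 0 fell, with 18.9% of all genes called higher and 16.8% lower. The vehicle count of members that rose is near the share of all genes. The members were chosen with earlier results of these data known, so these counts do not test complement as a set. The 3 C1q genes also varied together from library to library. Of all 44 tested complement genes, 7 rose and 8 fell under ABT-263, and 7 rose and 6 fell under vehicle. The median log2 fold change of the 9 was 0.48 under ABT-263 and 0.31 under vehicle, while that of all genes tested was -0.02 and -0.04. The plot of CPM by library shows the 9 genes in the 4 groups.

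**Figure D1:**
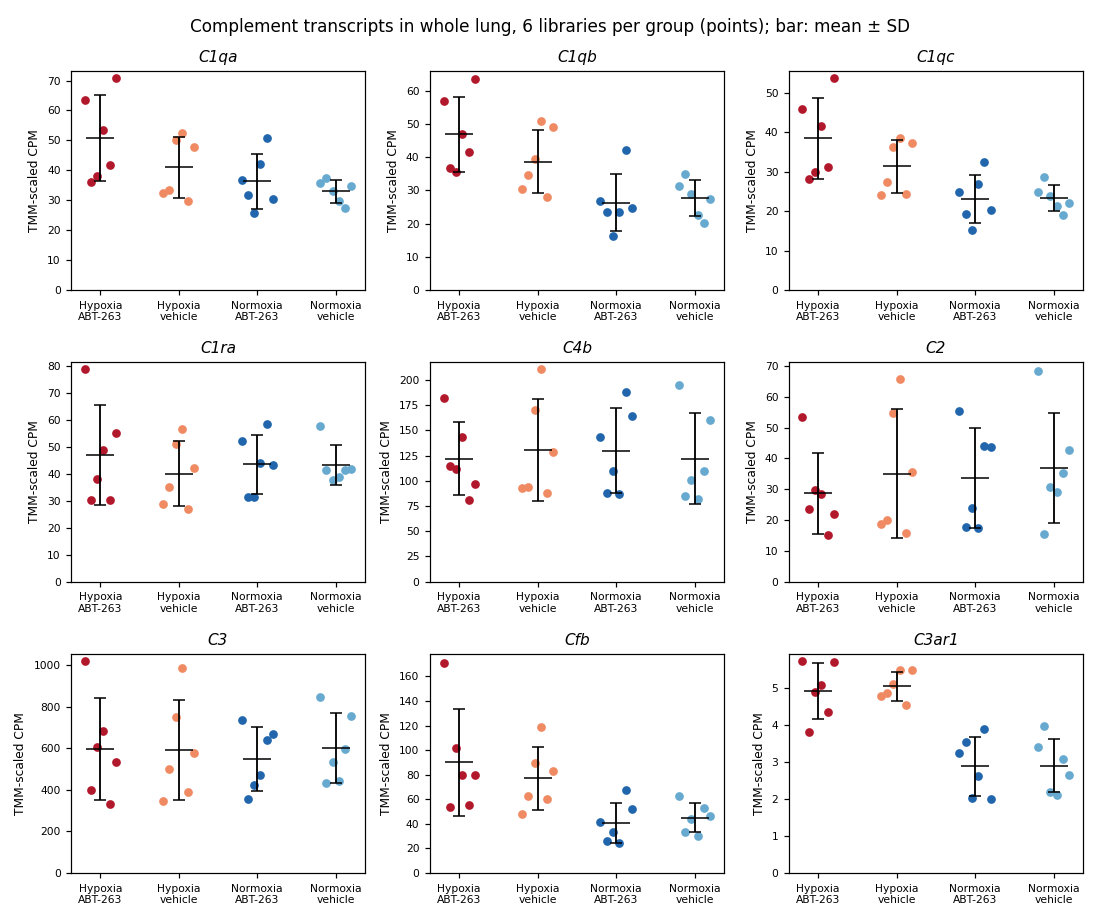
TMM-scaled CPM (y axis, from 0) of each of the 9 genes in the 4 groups (x axis), 6 libraries a group as points, with mean and SD bars. All 6 C3ar1 values of hypoxia with vehicle lie above all 6 of normoxia with vehicle, Cfb and the C1q chains are shifted upward in hypoxia with overlap, and C2, C4b and C3 spread widely within every group.

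C1qa, the A chain of the C1q recognition unit, ran from 36.2 to 71.0 CPM in hypoxia with ABT-263 (median 47.7), against 25.9 to 50.9 CPM in normoxia with ABT-263 (median 34.3). Under vehicle it ran from 29.9 to 52.6 CPM in hypoxia (median 40.5) and from 27.5 to 37.5 CPM in normoxia (median 33.9). In both settings 3 of the 6 hypoxic libraries lay above every normoxic one and the rest overlapped. C1qa rose under ABT-263 (log2 fold change 0.48, 95% interval 0.11 to 0.86, adjusted p = 0.0336), and its difference under vehicle did not pass (0.31, -0.07 to 0.68, adjusted p = 0.186).

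The call for C1qa under ABT-263 was narrow. It was lost when any of 7 libraries was left out: hypoxia with ABT-263 replicate 1 (adjusted p = 0.0852), 4 (0.0524) or 6 (0.111), or normoxia with ABT-263 replicate 1 (0.0514), 2 (0.0696), 3 (0.087) or 6 (0.0723).

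C1qb, the B chain, ran from 35.4 to 63.6 CPM in hypoxia with ABT-263 (median 44.2), against 16.4 to 42.2 CPM in normoxia with ABT-263 (median 24.1). Its 6 hypoxic libraries and all but 1 of the normoxic ones did not overlap. Under vehicle the range was 28.0 to 50.7 CPM in hypoxia (median 36.9) and 20.3 to 34.8 CPM in normoxia (median 28.2). C1qb rose 1.79-fold under ABT-263 (log2 fold change 0.84, SE 0.19, adjusted p = 0.00154), and under vehicle the log2 fold change of 0.49 (SE 0.19) had an adjusted p of 0.0537, just outside the threshold.

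C1qc, the C chain, completes the same trimer and gave the same picture. It ran from 28.2 to 53.7 CPM in hypoxia with ABT-263 (median 36.4), against 15.2 to 32.4 CPM in normoxia with ABT-263 (median 22.6). It ran from 24.1 to 38.6 CPM in hypoxia with vehicle (median 31.9) and from 19.0 to 28.8 CPM in normoxia with vehicle (median 22.9). C1qc rose 1.66-fold under ABT-263 (log2 fold change 0.73, SE 0.18, adjusted p = 0.00201), whereas its log2 fold change under vehicle, 0.43 (SE 0.18), had an adjusted p of 0.0612.

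Whether the drug changed the C1q response to hypoxia is a separate question, tested by the interaction of the factors. Its log2 estimates were 0.17 (95% interval -0.35 to 0.70) for C1qa, 0.35 (-0.22 to 0.92) for C1qb and 0.31 (-0.21 to 0.82) for C1qc, all with an adjusted p of 0.991. The C1q calls under ABT-263 and their lack under vehicle were therefore not shown to differ. Under vehicle, C1qb and C1qc also passed when 1 of certain libraries was left out: hypoxia with ABT-263 replicate 6 (adjusted p = 0.0468 for C1qb and 0.0474 for C1qc), hypoxia with vehicle replicate 1 (0.0383 and 0.0372) or 5 (0.0278 and 0.0356), normoxia with ABT-263 replicate 3 (0.0411 and 0.0473) or 5 (0.0274 and 0.0473), or normoxia with vehicle replicate 2 (0.0365 and 0.042).

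Averaging the hypoxia difference over vehicle and ABT-263, an estimate added after seeing the data, uses all 24 libraries for each gene. All 3 C1q chains were then higher in hypoxia, with log2 fold changes of 0.40 for C1qa (adjusted p = 0.0105), 0.66 for C1qb (0.000275) and 0.58 for C1qc (0.000381). Cfb (0.96, 0.000383) and C3ar1 (0.78, 9.45e-06) were higher as well, which made 5 of 9 members higher and 0 lower. In this estimate 26.9% of all genes tested were called higher and 28.6% lower.

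The chains did not move by equal amounts, as their ratios within a library show. C1qb over C1qa was 0.875 to 1.02 in hypoxia with ABT-263, against 0.559 to 0.830 in normoxia with ABT-263, so that these groups did not overlap. Under vehicle it was 0.787 to 1.03 in hypoxia and 0.736 to 0.928 in normoxia. C1qc over C1qa was 0.724 to 0.785 in hypoxia with ABT-263, against 0.585 to 0.679 in normoxia with ABT-263, again without overlap. Under vehicle it was 0.726 to 0.825 in hypoxia and 0.633 to 0.769 in normoxia. The B and C chain transcripts thus stood higher relative to the A chain in hypoxia. The exon sequences of the 3 genes share 0% of their 50-base words. The ratios are given without a test.

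C1ra encodes C1r, the protease that autoactivates within the C1 complex. It ran from 30.3 to 78.9 CPM in hypoxia with ABT-263 (median 43.4), against 31.3 to 58.7 CPM in normoxia with ABT-263 (median 43.8). Under vehicle it ran from 26.8 to 56.8 CPM in hypoxia (median 38.6) and from 37.6 to 57.9 CPM in normoxia (median 41.5). The groups overlapped, and the intervals of the log2 fold change were -0.35 to 0.57 under ABT-263 and -0.57 to 0.35 under vehicle, with adjusted p of 0.715 and 0.726. C1ra and its near copy C1rb share 48.0% of the 50-base words of C1ra, so the split of reads between them is an estimate. That split gave C1rb 0 or 1 expected counts per library, against 426 to 1348 for C1ra.

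C4b encodes C4, the substrate of C1s. Its range was 81.3 to 182 CPM in hypoxia with ABT-263, 87.5 to 211 CPM in hypoxia with vehicle, 86.5 to 188 CPM in normoxia with ABT-263 and 81.8 to 195 CPM in normoxia with vehicle. These ranges nearly coincide. The log2 fold change with hypoxia was -0.10 (95% interval -0.64 to 0.45) under ABT-263 and 0.10 (-0.45 to 0.64) under vehicle, with adjusted p of 0.790 and 0.801. C4b shares 34.6% of its 50-base words with C4a, its near copy.

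C2 provides the catalytic part of the classical convertase. Its levels ran from 15.1 to 53.3 CPM in hypoxia with ABT-263, from 15.7 to 65.7 CPM in hypoxia with vehicle, from 17.3 to 55.5 CPM in normoxia with ABT-263 and from 15.6 to 68.5 CPM in normoxia with vehicle. Within each group the highest library thus stood 3.20 to 4.41 times above the lowest, the widest spread of the 9 genes in hypoxia with ABT-263, hypoxia with vehicle, normoxia with ABT-263 and normoxia with vehicle alike. The log2 fold change with hypoxia was -0.23 (95% interval -1.07 to 0.61) under ABT-263 and -0.08 (-0.91 to 0.76) under vehicle, with adjusted p of 0.673 and 0.898. Exons of C2 overlap the gene model Gm20547 on the same strand and Zbtb12 on the opposite strand.

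C3, the component on which all pathways converge, had the highest CPM of the 9 genes. It ran from 334 to 1020 CPM in hypoxia with ABT-263 (median 570), against 356 to 734 CPM in normoxia with ABT-263 (median 557). Under vehicle it ran from 346 to 988 CPM in hypoxia (median 537) and from 435 to 848 CPM in normoxia (median 565). The hypoxic groups held both the highest and the lowest libraries, and their centres hardly differed. The log2 fold change with hypoxia was 0.12 (95% interval -0.44 to 0.67) under ABT-263 and -0.03 (-0.58 to 0.53) under vehicle, with adjusted p of 0.753 and 0.950.

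Cfb encodes factor B, the catalytic part of the alternative convertase and the partner of C3b. In hypoxia with ABT-263 it ran from 53.5 to 171 CPM (median 79.9), against 24.6 to 67.6 CPM in normoxia with ABT-263 (median 37.2). In hypoxia with vehicle it ran from 47.7 to 119 CPM (median 72.9), against 30.5 to 62.4 CPM in normoxia with vehicle (median 45.2). In both settings 4 of 6 hypoxic libraries lay above every normoxic one. Cfb rose 2.21-fold under ABT-263 (log2 fold change 1.15, SE 0.29, adjusted p = 0.00323) and 1.71-fold under vehicle (0.78, SE 0.29, adjusted p = 0.0384).

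The vehicle call of Cfb was lost when any of 7 libraries was left out: hypoxia with vehicle replicate 3 (adjusted p = 0.072), 4 (0.113) or 6 (0.0648), or normoxia with vehicle replicate 2 (0.0776), 3 (0.0587), 4 (0.0806) or 6 (0.0568). It was also lost with no filter on low counts (adjusted p = 0.0951), as was the C1qa call under ABT-263 (0.0936). The highest Cfb library, hypoxia with ABT-263 replicate 1 with 171 CPM, was also the highest of its group for C3, C4b, C2 and C1ra. Cfb shares 73.0% of its 50-base words with Gm20547, a model that joins C2 and Cfb and held 68.01 expected counts in that library and 0 in the other 23.

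Set against C3 in the same library, factor B separated the oxygen levels completely. Cfb over C3 was 0.117 to 0.168 in hypoxia with ABT-263, against 0.0521 to 0.105 in normoxia with ABT-263. It was 0.119 to 0.154 in hypoxia with vehicle, against 0.0612 to 0.0882 in normoxia with vehicle. Neither pair overlapped, although Cfb alone did. C4b over C3, by contrast, averaged 0.215 ± 0.0442 in hypoxia with ABT-263, 0.224 ± 0.0261 in hypoxia with vehicle, 0.238 ± 0.0410 in normoxia with ABT-263 and 0.199 ± 0.0182 in normoxia with vehicle (SD, n = 6 each), and its groups overlapped.

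C2 over Cfb compares the homologous catalytic parts of both convertases, from neighbouring genes. The ratio was 0.273 to 0.437 in hypoxia with ABT-263, against 0.651 to 1.34 in normoxia with ABT-263, without overlap. Under vehicle it was 0.262 to 0.610 in hypoxia and 0.461 to 1.10 in normoxia, with overlap. Relative to Cfb in the same library, C2 therefore stood lower in hypoxia than in normoxia. These ratios, chosen after seeing the values, are a description and were not tested.

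**Figure D2:**
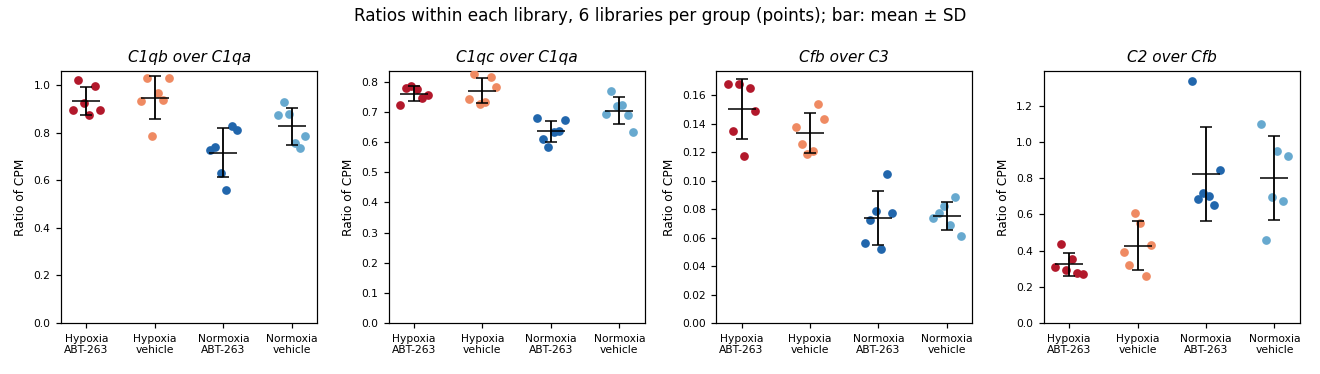
Ratios of CPM within each library (y axis, from 0) for C1qb over C1qa, C1qc over C1qa, Cfb over C3 and C2 over Cfb in the 4 groups (x axis), 6 libraries a group as points, with mean and SD bars. Cfb over C3 lies at 0.117 or above in all hypoxic libraries and at 0.105 or below in all normoxic ones.

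C3ar1, the receptor for C3a, had the lowest CPM of the 9 genes and the smallest spread in hypoxia relative to its mean. It ran from 3.80 to 5.74 CPM in hypoxia with ABT-263 (median 4.98), against 1.99 to 3.89 CPM in normoxia with ABT-263 (median 2.94). It ran from 4.53 to 5.50 CPM in hypoxia with vehicle (median 4.99), against 2.12 to 3.97 CPM in normoxia with vehicle (median 2.86). Under vehicle the groups did not overlap, and under ABT-263 only 1 hypoxic library lay within the normoxic range.

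C3ar1 rose 1.69-fold under ABT-263 (log2 fold change 0.76, SE 0.17, adjusted p = 0.00131) and 1.73-fold under vehicle (0.79, SE 0.17, adjusted p = 0.000857). These calls rest on low counts, 27 to 98 per library. They held in all 24 fits that left out 1 library, as did those of C1qb, C1qc and Cfb under ABT-263.

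Macrophage markers, read because C1q and C3ar1 are macrophage genes, moved both ways in hypoxia. Of 10 interstitial macrophage and monocyte markers, 4 rose and 3 fell under ABT-263, and 4 rose and 2 fell under vehicle. Of all tested genes, 21.6% were called higher and 19.4% lower under ABT-263, and 18.9% higher and 16.8% lower under vehicle. Mrc1, the mannose receptor, averaged 92.2 CPM in hypoxia with ABT-263 and 55.1 CPM in normoxia with ABT-263 (log2 fold change 0.74, adjusted p = 3.76e-06). Csf1r, the receptor for the macrophage growth factor CSF1, averaged 54.3 CPM in hypoxia with ABT-263 and 84.3 CPM in normoxia with ABT-263 (-0.64, adjusted p = 9.04e-07). Cd68, a lysosomal protein of macrophages, rose (0.60, adjusted p = 0.00379) and Apoe fell (-0.57, adjusted p = 0.0169).

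The summed level of these 10 markers ran from 9740 to 13300 CPM in hypoxia with ABT-263, 7920 to 12300 CPM in hypoxia with vehicle, 6500 to 10700 CPM in normoxia with ABT-263 and 7300 to 10800 CPM in normoxia with vehicle. Most of it was Lyz2, which alveolar type 2 cells also express. The 8 alveolar macrophage markers summed to 492 to 742 CPM in hypoxia with ABT-263, 429 to 841 CPM in hypoxia with vehicle, 198 to 345 CPM in normoxia with ABT-263 and 242 to 341 CPM in normoxia with vehicle. Chil3 alone of them was called, with a mean of 478 CPM in hypoxia with ABT-263, 536 CPM in hypoxia with vehicle, 178 CPM in normoxia with ABT-263 and 177 CPM in normoxia with vehicle. The part of any of these markers in the C1q and C3ar1 differences was not tested.

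ABT-263 itself left all 9 members uncalled. In hypoxia the drug gave log2 fold changes of 0.31 for C1qa (95% interval -0.06 to 0.68), 0.28 for C1qb (-0.12 to 0.68), 0.29 for C1qc (-0.07 to 0.66) and 0.23 for Cfb (-0.36 to 0.82). Those of C1ra, C4b, C2, C3 and C3ar1 lay between -0.29 and 0.23, and every adjusted p was close to 1. In normoxia all 9 estimates lay between -0.14 and 0.13, with adjusted p of 0.916 or more.

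These intervals bound what could have been missed. For C3ar1 the interval was -0.39 to 0.32 in hypoxia and -0.35 to 0.35 in normoxia, whereas for C2 it was -1.13 to 0.55 and -0.97 to 0.70. Few genes of any kind passed: 0% of all tested genes in hypoxia by edgeR (543 had an unadjusted p under 0.05, and DESeq2 called 4 after adjustment) and 0.0413% in normoxia, which is 7 genes (DESeq2 called 30). The interaction of hypoxia with ABT-263 called 0 of the 9 members and 0% of all genes in edgeR, with 625 genes at an unadjusted p under 0.05 and 0 called by DESeq2. Averaged over both oxygen levels, the drug called 0.165% of all genes and 0 of the 9 members (C1qa 0.22, adjusted p = 0.946).

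**Figure D3:**
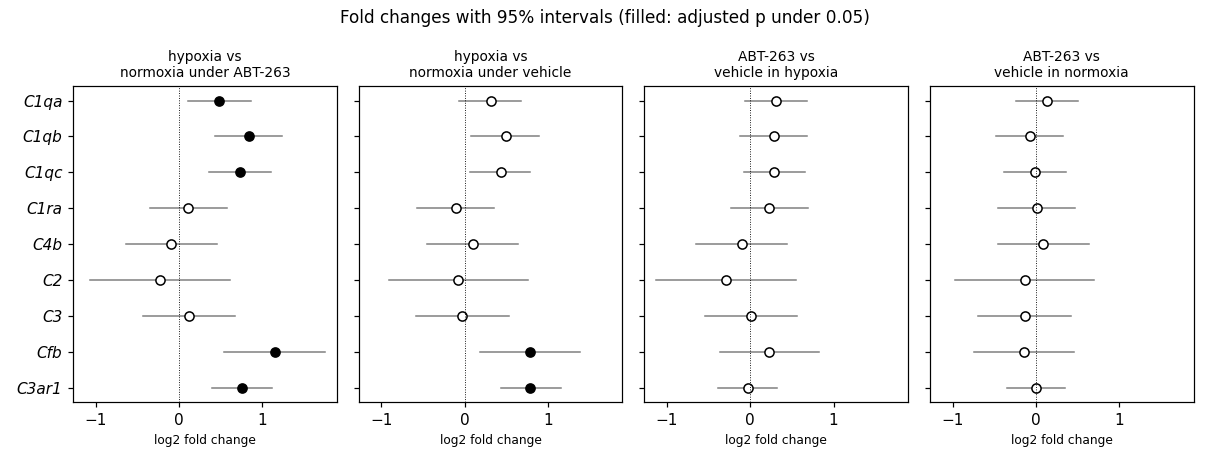
log2 fold changes (x axis) of the 9 genes (rows) in the 4 comparisons, with 95% intervals as lines; filled points have an adjusted p under 0.05. Under ABT-263, 5 genes are filled to the right of 0 for hypoxia, under vehicle 2, and none is filled for ABT-263 against vehicle.

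Among the 35 other complement genes tested, 2 rose and 8 fell in hypoxia under ABT-263, where 21.6% of all tested genes were called higher and 19.4% lower. Under vehicle 5 rose and 6 fell, where 18.9% of all tested genes were called higher and 16.8% lower. The counts of genes that fell are near these shares, and those that rose are below them. Leaving out each library in turn was tried for these genes after seeing the data, and is given where it changed the call of a gene named here. Their median log2 fold change was -0.07 under ABT-263 and -0.13 under vehicle. The drug called 0 of them at either oxygen level. Factor I, factor D and C5 were among those that moved, and they are taken here by role.

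Of the soluble regulators, Cfi encodes factor I, the protease that inactivates C3b and C4b. It ran from 2.70 to 8.38 CPM in hypoxia with ABT-263 and from 0.355 to 1.30 CPM in normoxia with ABT-263. It ran from 2.63 to 5.75 CPM in hypoxia with vehicle and from 0.673 to 1.64 CPM in normoxia with vehicle. Neither pair overlapped, and Cfi rose 6.73-fold under ABT-263 (adjusted p = 3.92e-07) and 4.65-fold under vehicle (adjusted p = 4.71e-06). These folds rest on low normoxic counts of Cfi, 6 to 27 per library. The other 6 tested soluble regulators did not pass, among them Serping1, the C1 inhibitor, with a log2 fold change of 0.37 under ABT-263 (adjusted p = 0.0833) and 0.06 under vehicle (adjusted p = 0.796). Serping1 passed under ABT-263 without hypoxia with ABT-263 replicate 2 (0.041) or 3 (0.033).

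Of the 4 terminal components tested, Hc, which encodes C5, was the one called. It ran from 217 to 303 CPM in hypoxia with ABT-263 and from 397 to 652 CPM in normoxia with ABT-263. It ran from 238 to 318 CPM in hypoxia with vehicle and from 471 to 688 CPM in normoxia with vehicle. Every hypoxic library lay below every normoxic one, and Hc fell to 0.505-fold under ABT-263 (adjusted p = 6.91e-07) and 0.479-fold under vehicle (adjusted p = 2.39e-07). Hc overlaps Gm13449 on the opposite strand, and without a stated strand setting their reads cannot be told apart.

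Of the membrane regulators, Cr1l, known in mouse as Crry and a brake on C3 convertases, rose by a small and even amount. It averaged 118 ± 6.15 CPM in hypoxia with ABT-263, 117 ± 8.67 CPM in hypoxia with vehicle, 92.9 ± 3.91 CPM in normoxia with ABT-263 and 90.8 ± 8.24 CPM in normoxia with vehicle (SD, n = 6 each). No hypoxic library overlapped its normoxic counterparts (log2 fold change 0.34, adjusted p = 0.000235 under ABT-263, and 0.37, adjusted p = 9.29e-05 under vehicle). Cd59a, which blocks the membrane attack complex, rose under vehicle (0.51, adjusted p = 0.0141). Its 0.36 under ABT-263 had an adjusted p of 0.0684, and it passed without hypoxia with ABT-263 replicate 1 (0.0275), normoxia with ABT-263 replicate 2 (0.0461) or normoxia with vehicle replicate 3 (0.0385). Susd4, a complement inhibitor of the cell surface, fell under both ABT-263 (-0.45, adjusted p = 0.00166) and vehicle (-0.40, adjusted p = 0.00430).

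Of the other receptors, Cd93, an endothelial and myeloid protein once taken for a C1q receptor, fell under ABT-263 (log2 fold change -0.48, adjusted p = 0.00623) and under vehicle (-0.97, adjusted p = 6.05e-06). Cr2, the complement receptor of B cells, fell under ABT-263 (-1.04, adjusted p = 0.000964) and vehicle (-0.61, adjusted p = 0.0323). The vehicle call of Cr2 was lost without hypoxia with vehicle replicate 1 (0.0603), 3 (0.0797) or 4 (0.0711), or normoxia with vehicle replicate 2 (0.0817) or 5 (0.0724). The B cell marker sum ran from 49.6 to 146 CPM in hypoxia with ABT-263, 142 to 229 CPM in hypoxia with vehicle, 106 to 167 CPM in normoxia with ABT-263 and 143 to 229 CPM in normoxia with vehicle, and its part in Cr2 was not tested. Itgax, a subunit of the receptor for inactivated C3b, fell under ABT-263 (-0.49, adjusted p = 0.00838) and had -0.32 under vehicle (adjusted p = 0.0787, and 0.0485 without hypoxia with vehicle replicate 4 or 0.0342 without normoxia with ABT-263 replicate 5). It is also a marker of dendritic cells, and 5 of 6 other dendritic cell markers fell in each hypoxia comparison. Of all tested genes, 19.4% were called lower under ABT-263 and 16.8% under vehicle. Those 6 markers summed to 44.7 to 58.4 CPM in hypoxia with ABT-263, 45.3 to 57.8 CPM in hypoxia with vehicle, 77.0 to 92.7 CPM in normoxia with ABT-263 and 74.9 to 92.5 CPM in normoxia with vehicle, and their part in the Itgax difference was not tested.

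Vsig4, a macrophage receptor for C3b, passed under vehicle (2.23, adjusted p = 0.0459) at means of 0.623 CPM in hypoxia and 0.127 CPM in normoxia, so few counts stand behind it. That call was lost in 13 of the 24 fits that left out 1 library, with any of hypoxia with ABT-263 replicate 3, 4 or 5, hypoxia with vehicle replicate 1, 2, 3, 4 or 6, or normoxia with vehicle replicate 1, 2, 3, 4 or 5 left out (adjusted p of 0.0505 to 0.0929). Under ABT-263 Vsig4 had an adjusted p of 0.187, and of 4.14e-05 without normoxia with ABT-263 replicate 1, which held 1.86 CPM where the other 5 libraries held at most 0.148 CPM.

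Of the lectin pathway, Mbl1, a mannose-binding lectin, fell under ABT-263 (log2 fold change -1.06, adjusted p = 0.000686) and vehicle (-0.78, adjusted p = 0.00956). Both Mbl1 calls rest on low counts, 19 to 97 per library. Colec11, a collectin, fell under ABT-263 (-1.45, adjusted p = 0.0125), with -0.81 under vehicle (adjusted p = 0.121, and 0.0299 without normoxia with vehicle replicate 2). The Colec11 means were 0.364 CPM in hypoxia with ABT-263 and 1.01 CPM in normoxia with ABT-263, so few counts stand behind the call. C4a, grouped here with the convertase components, fell under ABT-263 (-0.94, adjusted p = 0.0395). Its means were 0.591 CPM in hypoxia with ABT-263 and 1.15 CPM in normoxia with ABT-263, levels at which reads shared with C4b weigh heavily. Its call was lost without hypoxia with ABT-263 replicate 1 (adjusted p = 0.0944), 4 (0.0864), 5 (0.0634) or 6 (0.0939), or normoxia with ABT-263 replicate 2 (0.0611), 3 (0.0711) or 6 (0.0888).

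Fcna, ficolin A, overlaps Fcnaos on the opposite strand. It ran from 4.61 to 8.08 CPM in hypoxia with ABT-263, against 0.527 to 1.30 CPM in 5 libraries of normoxia with ABT-263 and 13.9 CPM in replicate 1 of that group. Its log2 fold change under ABT-263 was 0.84 (adjusted p = 0.224) with that library and 2.53 (adjusted p = 1.54e-06) without it. Under vehicle Fcna rose (1.71, adjusted p = 0.0341), a call lost without hypoxia with vehicle replicate 1 (0.067) or 5 (0.0545), or normoxia with vehicle replicate 1 (0.0611), 2 (0.0572), 4 (0.0638), 5 (0.0698) or 6 (0.0519). Fcna counts in normoxia with vehicle were low, 7 to 31 per library.

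Cfd encodes factor D, the protease that cuts factor B and is best known from fat cells. It fell under vehicle (log2 fold change -2.48, SE 0.82, adjusted p = 0.0219). Its libraries ran from 1.72 to 32.5 CPM in hypoxia with vehicle and from 6.66 to 194 CPM in normoxia with vehicle, with overlap. Under ABT-263 it was -0.45 (adjusted p = 0.670). The fat cell markers Adipoq (-2.79, adjusted p = 0.0124) and Plin1 (-3.03, adjusted p = 0.00291) fell beside it under vehicle. The adipocyte marker sum ran from 3.89 to 12.1 CPM in hypoxia with vehicle and from 5.59 to 50.2 CPM in normoxia with vehicle, and its part in the Cfd difference was not tested.

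**Figure D4:**
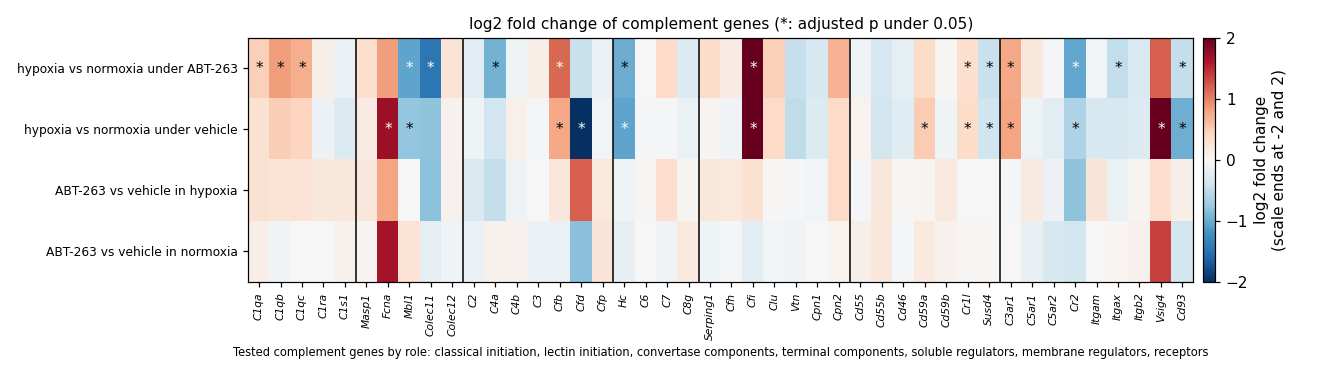
log2 fold change (colour, scale ending at -2 and 2) of all 44 tested complement genes (columns, grouped by role between the vertical lines) in the 4 comparisons (rows); asterisks mark an adjusted p under 0.05. Both hypoxia rows carry asterisks in both directions, and both ABT-263 rows carry none.

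Much of the spread of C2, C3, C4b and Cfb within a group followed the markers of mesothelium, the cell layer on the lung surface. The summed CPM of Msln, Upk3b, Wt1 and Lrrn4 ran from 92.9 to 526.5 in hypoxia with ABT-263, 128 to 578 in hypoxia with vehicle, 55.8 to 390 in normoxia with ABT-263 and 54.5 to 463 in normoxia with vehicle. The groups overlapped widely, and 0 of the 4 markers was called in either hypoxia comparison, with log2 fold changes of 0.16 to 0.37 under ABT-263 and 0.13 to 0.63 under vehicle.

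After the group means were removed, log2 CPM of C2 and the log2 marker sum had a Pearson r of 0.96 and a Spearman rho of 0.97 over 24 libraries, and r was 0.97 without the 2 libraries farthest from the median marker sum. Within the 4 groups r ran from 0.97 to 0.98 (n = 6 each). For C4b r was 0.87 (0.74 to 0.95 within groups), for C3 0.86 (0.79 to 0.96) and for Cfb 0.81 (0.72 to 0.93). C1ra had 0.69 (0.49 to 0.99), but its pooled r was 0.77 with alveolar type 1, 0.70 with fibroblast and 0.69 with alveolar type 2 marker sums.

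C1q and the C3a receptor did not share this steady relation. The pooled r was 0.33 for C1qa, 0.32 for C1qb, 0.29 for C1qc and 0.01 for C3ar1, and within groups its sign changed: for C1qa it was 0.98 in hypoxia with vehicle and -0.26 in normoxia with vehicle. C1q followed markers of several other cell types. C1qa had a pooled r of 0.81 with the alveolar type 2 marker sum, 0.76 with adventitial fibroblast, 0.75 with alveolar type 1, 0.63 with alveolar macrophage and 0.58 with interstitial macrophage and monocyte markers. The first principal component of the residuals of all tested genes, which held 26.6% of their variance, had r of 0.90 with C1qa, 0.71 with C1qb, 0.86 with C1qc and 0.43 with C3ar1. It was not particular to C1q, with r of 0.86 for C1ra, 0.63 for C3, 0.50 for C2, 0.50 for Cfb and 0.46 for C4b. Its sign was set so that r with C3 is positive. These are descriptions of 24 libraries in which both quantities share depth and tissue makeup, and no p is given. A change of 1 log2 unit in the marker sum went with 0.71 log2 units of C2, 0.42 of C3, 0.42 of C4b, 0.43 of Cfb, 0.11 of C1qa and 0.00 of C3ar1.

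**Figure D5:**
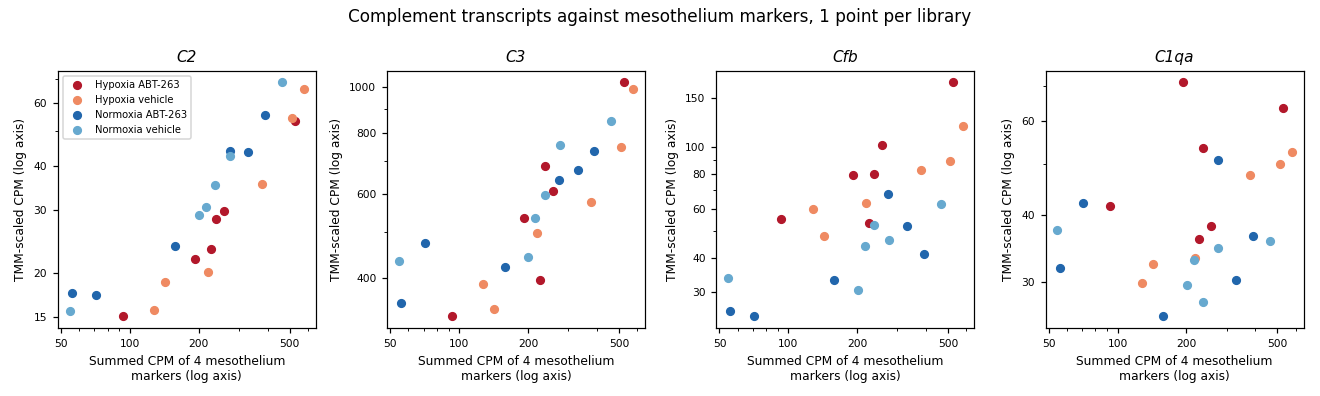
CPM of C2, C3, Cfb and C1qa (y axis, log) against the summed CPM of 4 mesothelium markers (x axis, log), 1 point per library, coloured by group. C2 lies along a single band in all 4 groups, the hypoxic Cfb points lie mostly above the normoxic ones at the same marker level, and C1qa shows no such band.

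A fit with the marker sum as a covariate was added after seeing the data. At a given marker sum, C2 was called lower in hypoxia: log2 fold change -0.50 under ABT-263 (adjusted p = 0.00175) and -0.45 under vehicle (adjusted p = 0.00405). This is C2 relative to the markers: in the fit without the covariate, C2 had -0.23 and -0.08 and no call. Cfb stayed higher in hypoxia with the covariate, with 0.95 under ABT-263 (adjusted p = 0.000126) and 0.55 under vehicle (adjusted p = 0.0137). C1qa under ABT-263 was no longer called (0.43, adjusted p = 0.0532). The covariate fit called 5 of the 9 members under ABT-263 and 3 under vehicle, against 39.8% and 35.1% of all genes in either direction.

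Among themselves the members formed a C1q group and a group of C2, C3, C4b and Cfb. After removal of the group means, the C1q chains had r of 0.91 to 0.97 with each other over 24 libraries. C2, C3, C4b and Cfb had r of 0.85 to 0.93 with each other. C1ra went with both, at 0.75 to 0.84 with the C1q chains and 0.76 to 0.88 with C2, C3, C4b and Cfb. C3ar1 stood closest to the C1q chains (0.62 to 0.66) and farthest from C2 (0.18).

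The genes whose library-to-library pattern was most like that of a member were found by the same residual r among 14435 named genes that are not members. For the mean of the 3 C1q chains they were Cd74 (0.94) and Scpep1 (0.94), then Cotl1 (0.92), Psap (0.91) and H2-Eb1 (0.91), of which Cd74 and H2-Eb1 belong to antigen presentation. For C3 they were C1s1 (0.94), the gene of the protease C1s, and Ephb6, Gpc3, Sulf1 and Lrrn4cl (0.91 to 0.93). For Cfb they were Mpp6 (0.92), Slpi, Chst4, Aldh1a2 and Ephb6 (0.85 to 0.86 for these last). For C3ar1 they were Hcls1, Btbd9, Lsp1, Tmem189 and Cadm3, all at 0.74 to 0.76. C2, looked up after the others, had Sulf1 (0.99), Chst4 (0.96), Sfrp2 (0.96), Cldn15 (0.95) and Rspo1 (0.95).

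Of the 5 genes named for C1q, 0 was called in either hypoxia comparison, and their difference from C1q was not tested. Cd74 had a log2 fold change of -0.18 under ABT-263 (adjusted p = 0.559) and -0.46 under vehicle (adjusted p = 0.121). Scpep1 had 0.25 under ABT-263 (adjusted p = 0.225) and 0.01 under vehicle (adjusted p = 0.972). C1s1, the gene most like C3, had -0.12 under ABT-263 (adjusted p = 0.441) and -0.27 under vehicle (adjusted p = 0.0833). It passed under vehicle without hypoxia with vehicle replicate 4 (-0.36, adjusted p = 0.0232). Mpp6, the gene most like Cfb, rose under ABT-263 (1.14, adjusted p = 0.000148) and vehicle (0.86, adjusted p = 0.00219). The others named for Cfb did not share this. Ephb6 fell under ABT-263 (-0.65, adjusted p = 0.0259) and vehicle (-0.77, adjusted p = 0.00965). Slpi rose under ABT-263 (0.79, adjusted p = 0.00210) but was not called under vehicle (0.32, adjusted p = 0.200). Chst4 and Aldh1a2 were called in neither comparison.

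Levels between genes can be set side by side only per length of transcript. Per kilobase of exon, C3 led in every group with 116 ± 47.4 CPM in hypoxia with ABT-263, 115 ± 47.0 in hypoxia with vehicle, 107 ± 29.8 in normoxia with ABT-263 and 117 ± 32.8 in normoxia with vehicle (SD, n = 6 each). C1qa had 48.8 ± 13.8 in hypoxia with ABT-263, 39.4 ± 9.76 in hypoxia with vehicle, 34.9 ± 8.71 in normoxia with ABT-263 and 31.8 ± 3.66 in normoxia with vehicle. C1qb had 43.0 ± 10.4 in hypoxia with ABT-263, 35.5 ± 8.78 in hypoxia with vehicle, 24.1 ± 7.91 in normoxia with ABT-263 and 25.3 ± 5.01 in normoxia with vehicle. C1qa had the higher mean in all 4 groups, while the spreads of C1qa and C1qb between libraries overlapped. Cfb reached 31.9 ± 15.4 in hypoxia with ABT-263 and 27.3 ± 9.12 in hypoxia with vehicle, against 14.4 ± 5.89 in normoxia with ABT-263 and 15.9 ± 4.18 in normoxia with vehicle. The means of C4b lay between 21.4 and 22.9 in all 4 groups, with SDs of 6.36 to 8.83. The mean of Cfb thus stood above that of C4b in both hypoxic groups and below it in both normoxic groups. Their spreads between libraries overlapped in all 4 groups, and their order within a library was not tested. C3ar1 was lowest in every group, at 1.14 ± 0.177 in hypoxia with ABT-263, 1.17 ± 0.0919 in hypoxia with vehicle, 0.672 ± 0.185 in normoxia with ABT-263 and 0.674 ± 0.167 in normoxia with vehicle.

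Over the 4 groups, the means of C1qa, C1qb, C1qc and Cfb were highest in hypoxia with ABT-263, next in hypoxia with vehicle and lower in both normoxic groups. The step between the hypoxic groups and the step between the normoxic groups passed no test for these genes. C3ar1 had close means within each oxygen level: 4.92 CPM in hypoxia with ABT-263 and 5.05 CPM in hypoxia with vehicle, and 2.89 CPM in normoxia with ABT-263 and 2.90 CPM in normoxia with vehicle. For C1ra, C4b, C2 and C3 no neighbours in the order differed beyond their spread.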

How the data were processed

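The authors deposited 1 table of expected counts per gene over 24 libraries. The tools that the submitters' processing notes name are RSEM, STAR and Trimmomatic, with the GRCm38 build; versions, annotation release and strand setting are not given in the sources at hand. Per the labels' protocols, RNA was column-purified, made into stranded mRNA libraries and sequenced on a NextSeq. RSEM divides reads among similar genes by estimation, so near copies and overlapping genes are uncertain; 91.8% of values were whole.

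Expected counts were rounded and tested with edgeR 4.0.16 (R 4.3.3): filterByExpr with a minimum count of 10, which left 16935 genes, TMM, a robust quasi-likelihood fit of 1 mean per group over all libraries with 20 residual degrees of freedom, and Benjamini-Hochberg adjustment over all genes at 0.05. Intervals are 95%, from the standard error with 20 degrees of freedom. Correlations use log2 CPM (prior count 2) with the group means removed. The steps were tested on simulated counts. Within a group, every pair of libraries differed by more than sampling noise (lowest chi-square per degree of freedom 6.59), and each library counts as 1 replicate.

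Alternatives were DESeq2 1.42.0, limma-voom (limma 3.58.1), RLE size factors, no filter, only the groups compared and leaving out each library in turn; others, named where used, were chosen after seeing the data. The members and gene lists were chosen with earlier results of these data known. All 9 members are named in each comparison, and of the other complement genes those that passed a test, with a few that did not given for their role. Coordinates and exon lengths are from GENCODE M21 (GRCm38), promoters from RefSeq GRCm38.p6. The labels number no replicates.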

Additional observations from a re-analysis of the deposited data

Results flagged for a closer look

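In normoxia with vehicle, replicate 1 stood apart for C1ra, with 57.9 CPM against 41.9 CPM in the nearest of the other 5 libraries. That library was also the highest of its group for C2, C3, C4b and Cfb and had the highest mesothelium marker sum of its group, 463.1 CPM. In normoxia with ABT-263, replicate 1 stood apart for C2 over Cfb, with a ratio of 1.34 against 0.843 in the nearest of the other 5. Of 60 groups of 6 values examined, 2 held a library this far from the others, and chance alone gives about 1 in 20.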

How the results depend on the processing

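For hypoxia under vehicle, the count of members called (2) was 1 with no filter on low counts, 4 in the fit of only the 2 groups compared, 5 with the first residual component (26.6% of the variance left after the group means) as a covariate, 5 averaged over the drug (9405 genes, against 6053), and 1 to 4 with 1 library left out. It was 1 without hypoxia with vehicle replicate 3, 4 or 6 or normoxia with vehicle replicate 3, 4 or 6, and 4 without hypoxia with ABT-263 replicate 6, hypoxia with vehicle replicate 1 or 5, or normoxia with ABT-263 replicate 3 or 5. The causes were not tested. For hypoxia under ABT-263 the count (5) was 4 to 5 in every alternative run: C1qa also missed the threshold with only the 2 groups compared (adjusted p = 0.0557) and without normoxia with vehicle replicate 1 and hypoxia with ABT-263 replicate 1 together (0.0923). DESeq2 added C1qb under vehicle (adjusted p = 0.0404). No member was called for ABT-263 or the interaction in any alternative.

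Genes called for ABT-263 in normoxia (7) numbered 0 with only the 2 groups compared, 30 by DESeq2, 1 without the same 2 libraries, 81 with the first residual component, 28 averaged over oxygen and 1 to 13 with 1 library left out. In hypoxia (0) they numbered 4 by DESeq2, 1 with the mesothelium covariate and 0 to 1 with 1 library left out. No called fold change reversed. No paired analysis was possible because the labels number no replicates and do not tie libraries of different groups together. C3ar1 rests on 27 to 98 counts per library, the lowest depth of the members.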
